A study of Homo sapiens with 6 samples.

Results

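Ribosomal protein pseudogenes were followed in HepG2 cells, an established human liver carcinoma line, with and without oridonin. The members were the genes of the deposited log2 FPKM table that are typed as processed pseudogene and that carry a ribosomal protein gene's name followed by P and a number. There were 96 such genes among the 18404 genes of that table, and they belong by name to 43 parent genes. Adherent HepG2 cells in DMEM medium had received 0.1% DMSO (3 libraries) or 10 µM oridonin, a plant diterpenoid (3 libraries), and total RNA was taken at 48 h. The DMSO content of the oridonin wells is not given in the labels. All cells came from 1 line, both groups were unmodified, and the labels do not say whether the 3 libraries of a group came from separate cultures. The p-values cover the spread among these 6 libraries only, and part of that spread may be technical.

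Total counts ran from 22250202 to 30739574 per library. Pairs of libraries within a group differed by more than counting noise, so no library was taken as a copy of another. All 9 hepatocyte markers looked for were detected, ALB, AFP, TF and SERPINA1 among them, and their summed level was 19339 to 20453 CPM (counts scaled to library size) in DMSO and 12187 to 13227 CPM in oridonin. Of the 9, 6 were called lower and 2 higher in oridonin at an edgeR adjusted p under 0.05. FGB and APOA2 went against the sum. FGB had 127 to 179 counts in DMSO and 358 to 446 in oridonin. The far more abundant APOA2 had 29497 to 40654 counts in DMSO and 45907 to 50381 in oridonin. Of the other cell types, the fibroblast list (COL1A1, COL1A2, DCN, LUM) summed to 0.273 to 2.41 CPM in DMSO and 2.29 to 4.25 CPM in oridonin. The endothelium list (PECAM1, VWF, CDH5) summed to 5.59 to 7.52 CPM and 7.87 to 8.70 CPM. In that list 1 gene was called higher and 1 lower, and CDH5 had 8 to 15 counts in DMSO and 4 in each oridonin library. Among leukocyte markers PTPRC had 0 counts in every DMSO library and 1 to 3 counts in oridonin, and LYZ made up nearly all of the list's 680 to 714 CPM in DMSO and 421 to 451 CPM in oridonin. The part of these shifts in the results that follow was not tested.

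A processed pseudogene is a copy of an mRNA that was reverse transcribed and inserted back into the genome, so it lacks introns and usually lacks its parent's promoter. Ribosomal protein genes encode the proteins of the small (RPS) and large (RPL) ribosomal subunits, and they gave rise to more processed pseudogenes than most human gene families because their mRNAs are short and abundant. Most of their mRNAs start with a terminal oligopyrimidine tract (5′TOP), which ties their translation to growth signals. Because many copies differ from the parent's mRNA at only a few bases, a short read can match the pseudogene and the parent equally well.

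How close a copy is to its parent differs widely, and 2 examples that the results turn on are shown from the GENCODE 29 transcripts (GRCh38), printed 5′ to 3′. Of the members, 4 were identical to their parent's transcript over their whole length. RPL41P1 and RPL41P5 both hold the coding sequence of RPL41, the smallest large-subunit protein, without a change. They are the case in which a read wholly inside the copy cannot tell copy and parent apart. The coding sequence is 75 bases long without its stop codon and lies at chr20:21755270-21755344 in RPL41P1.
RPL41P1: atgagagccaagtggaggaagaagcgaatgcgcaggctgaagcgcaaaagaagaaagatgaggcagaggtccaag
RPS28P7 and RPL39P3 are likewise identical to RPS28 and RPL39. A read inside any of these 4 could not be told from a read of its parent. Within the bases they share, RPL41P1 and RPL41P5 could not be told from each other. Bases beyond the ends of the copies were not compared. RPL13AP5 has 3 mismatches to its parent's transcript over 612 aligned bases, and RPS2P5, the member with the most counts, has 11 over 879.

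RPL23AP64 (chr11:119003271-119003396, minus strand) is shown because its ratio to its parent was the one that limma called, a call that did not hold in every alternative. It is far more diverged, with 32 mismatches and 12 gaps against the coding sequence of RPL23A. The 126 bases shown hold 16 mismatches, and the capitals mark the bases at which the 2 sequences differ.
RPL23AP64: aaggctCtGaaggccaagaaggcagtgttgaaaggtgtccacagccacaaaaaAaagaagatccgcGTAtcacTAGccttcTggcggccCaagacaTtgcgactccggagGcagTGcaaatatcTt
RPL23A: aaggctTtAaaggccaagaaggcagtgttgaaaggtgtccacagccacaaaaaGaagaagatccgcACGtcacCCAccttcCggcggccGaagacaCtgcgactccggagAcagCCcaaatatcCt

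Sharing was measured for every member as the share of its 50-base words that also occur in a transcript of another gene. It was 50% or more in 39 of 96 members, and 7 members shared no word. Of the 96 members, 76 had the parent they are named for ranked first among protein-coding genes by shared words. Where genes tied, only 1 was ranked first. RPL7P21 and RPL7P22, however, shared 266 of 586 and 172 of 684 words with RPL7L1 and 0% with RPL7, the gene in their names. RPL12P4, RPL12P6 and RPL12P14 shared most words with NBEAL1 rather than with RPL12. RPL17P50 shared 84 of 497 words with RPL17-C18orf32 and 16.9% with RPL17, a tie. Each member was given 1 position in GENCODE 29, with genes on its own strand taken first and exons before introns. In these terms 46 members were intergenic, 21 lay in an intron of another gene on the same strand, 27 in an intron on the opposite strand, and 2 overlapped an exon on the opposite strand. RPSAP58, placed in a same-strand intron, also overlapped an exon of a lincRNA on the opposite strand. How the counting program treated reads that match several genes is not given in the sources used here, so a member's level below is the level assigned to it.

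The members as a whole took 0.0587% to 0.0747% of a library's counts. Their summed level was 681, 753 and 778 CPM in DMSO libraries 1 to 3 and 626, 573 and 644 CPM in oridonin libraries 1 to 3. The groups did not overlap, and the mean went from 738 ± 50.4 to 614 ± 37.0 CPM (SD, n = 3), 83.3% of the DMSO level. The 43 parents together went from 40307 ± 1149 to 33680 ± 312 CPM (SD, n = 3). The members' sum was thus 1.83% ± 0.0740 of the parents' sum in DMSO and 1.82% ± 0.111 in oridonin (SD, n = 3), a difference smaller than the spread between libraries. No p is given for these sums. In bulk samples, fewer cells of a type and less RNA per cell cannot be told apart.

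A few members carried most of this signal. RPS2P5, a copy of the small-subunit gene RPS2, held 36.2% ± 1.35 of the summed CPM in DMSO and 38.3% ± 2.62 in oridonin (SD, n = 3). The 12 members with the highest levels held 81.0% and 81.8%. At the other end, 43 members had a mean of 0.0415 to 0.322 CPM, with 1 to 16 counts per library, and did not pass the filter on low counts. None of them had 0 counts in a library, because the deposited log2 FPKM table lists only genes with a count in all 6. The 53 members that passed and were tested had a mean of 0.350 to 252 CPM.

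**Figure D1:**
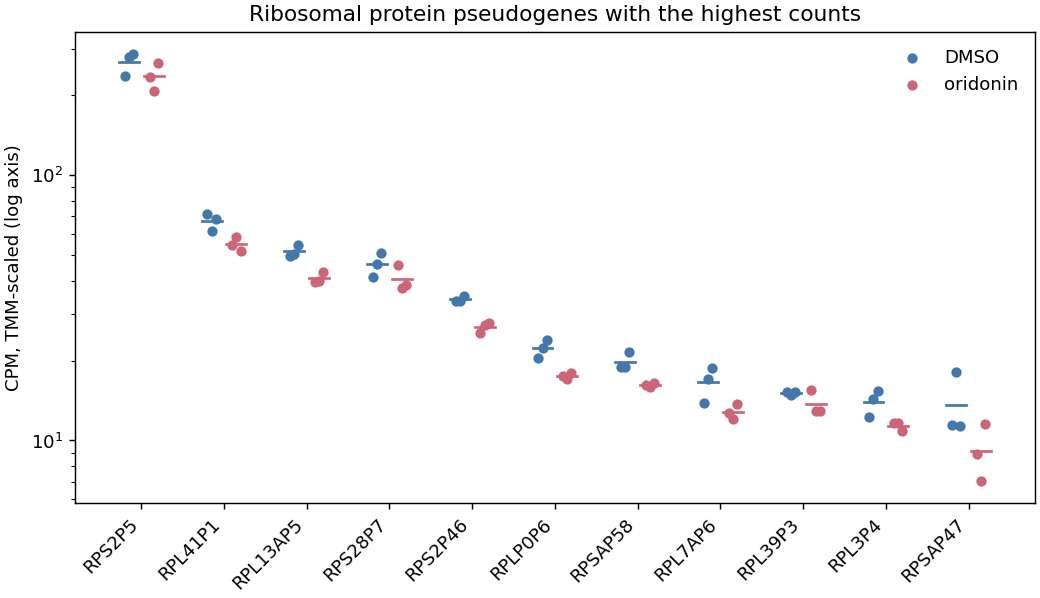
Levels of the ribosomal protein pseudogenes with the highest means that are reported here, in TMM-scaled CPM on a log axis. Each point is 1 library (blue DMSO, red oridonin, 3 each) and each bar is a group mean. RPS2P5 stands far above the others, and the groups separate for RPL41P1, RPL13AP5, RPS2P46, RPLP0P6, RPSAP58, RPL7AP6 and RPL3P4.

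Tested members were closer to their parents than members that were not tested. Median identity to the parent was 98.5% (range 88.3% to 100%) in the 53 tested and 94.7% (79.6% to 100%) in the 43 others. The median share of words found in another gene was 59.2% against 18.9%. An identity of at least 98% was found in 35 tested members and in 5 of the others. These are descriptions, with no test.

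Level relative to the parent was read from the deposited FPKM values, which are per gene length. Across the 53 tested members this ratio had a median of 2.89% in DMSO and ran from 0.108% (RPL7AP30) to 158% (RPS23P8). Over all 96 members it went with the share of shared words (Spearman's rho = 0.55, Pearson's r = 0.28, n = 96 genes). These points share libraries, and several share a parent. Identical copies were high, with the exception of RPL41P5 at 4.52%: RPL41P1 at 152% ± 16.2, RPS28P7 at 108% ± 4.88 and RPL39P3 at 67.7% of the parent's FPKM in DMSO (SD, n = 3).

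The FPKM ratio rests on the deposited lengths, which for parents are longer than 1 mRNA. RPL41 has a deposited length of 1088 bases against 469 in the GENCODE transcript to which the copies were aligned, while RPL41P1 has 81. In CPM, which is not per length, RPL41P1 stood at 11.3% ± 1.23 of RPL41, RPS28P7 at 10.7% ± 0.487 of RPS28 and RPS2P5 at 10.6% ± 0.681 of RPS2 in DMSO (SD, n = 3). By CPM, 43 of the 53 tested members were under 2% of the parent.

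**Figure D2:**
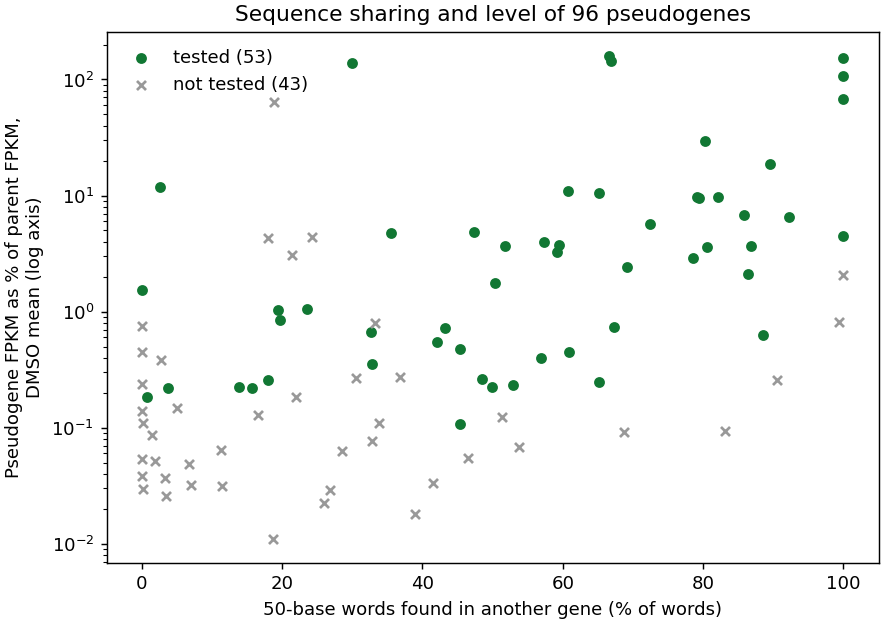
Each point is 1 of the 96 pseudogenes. The x axis is the percentage of its 50-base words found in another gene, and the y axis (log) is its FPKM as a percentage of the parent's FPKM, mean of 3 DMSO libraries. Circles are the 53 tested members and crosses the 43 not tested. The identical copies sit at 100% on the x axis and at 67.7% or more on the y axis, except RPL41P5 at 4.52%.

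In 4 members a high ratio stood beside a parent with few counts. RPS23P8 (158%), RPL26P19 (143%) and RPS10P3 (139%) had parents at 22.7, 10.0 and 2.51 CPM, and the untested RPL17P50 (63.9%) had a parent at 1.09 CPM. For comparison, RPS2 stood at 2516 CPM and RPL13A at 2100 CPM. Exons of another gene on the same strand covered 77.0% of RPS10 (RPS10-NUDT3), 76.3% of RPL17 (RPL17-C18orf32) and 59.0% of RPL26 (AC135178.2), and 0% of RPS23. The part of this overlap in the low counts was not tested. These members and parents were picked after their values were seen.

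Against this background, the response to oridonin was compared between 3 DMSO and 3 oridonin libraries. Ribosomal protein pseudogenes were lower or did not pass the test: of 53 tested, 21 fell and 0 rose at an edgeR adjusted p under 0.05. The fall was modest, with a median log2 fold change of -0.40 and a range from -1.20 to -0.29 among the 21. Over all 53 tested members the median was -0.35, with 46 values below 0 and 7 above. Without adjustment, 26 were lower and 1 was higher at p under 0.05, and DESeq2 called 17 lower and 0 higher.

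Over all 15116 genes tested the same test called 41.9%, with 21.3% lower and 20.6% higher, and the median was 0.01. With scaling to total counts alone, 65.5% of the calls over all genes were upward, against 49.2% here, and among the members 17 were then lower and 1 (RPL23AP64) higher. The share of members called lower was 39.6%. The groups did not overlap in 22 members that were lower and in 2 that were higher, against 25.6% and 26.0% of all genes tested. Of the 21 called members, 19 were above the filter level in all 6 libraries. The other 2, RPSAP19 and RPL5P4, reached it in all 3 DMSO libraries but in 2 and 1 of the oridonin libraries, so the filter itself favoured a lower value in oridonin.

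Calls were more frequent at higher levels. Of the 23 members with a mean of at least 5 CPM, 15 fell, and all 23 had a log2 fold change below 0 with a median of -0.34. Among all genes at that level, 26.6% were called lower and the median was -0.01. Between 1 and 5 CPM 4 of 13 members fell, and under 1 CPM 2 of 17. Word sharing moved with level, since 21 of the 23 members at 5 CPM or more shared at least 50% of their words, against 8 of 13 and 3 of 17 in the lower classes.

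Other processed pseudogenes were the nearest comparison. Of 313 tested, 33 fell and 13 rose, with a median of -0.11, and of the 36 at 5 CPM or more, 12 fell and 1 rose, with a median of -0.18. This class holds every processed pseudogene outside the name rule, so it can include ribosomal protein copies that carry other names. Of the 174 with a parent found by name, 20 fell and 6 rose, with a median of -0.11. Pseudogenes of ribosomal protein genes that carry another gene type, mostly transcribed processed pseudogene, numbered 13. Of the 11 tested, 4 rose and 2 fell. The differences between these classes were not tested.

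Among copies of small-subunit genes, the highest level belonged to RPS2P5 (ENSG00000240342, hg38 chromosome 12, 118246084 to 118246962, plus strand), in an intron of TAOK3 on the opposite strand. It had 236, 280 and 287 CPM in DMSO and 234, 207 and 265 CPM in oridonin. The groups overlapped, since DMSO library 1 lay between oridonin libraries 1 and 3. The log2 fold change of -0.18 ± 0.10 (SE) did not pass the edgeR test (adjusted p = 0.163), though it passed without DMSO replicate 1 (-0.27) or without oridonin replicate 3 (-0.28). Its parent RPS2 fell from 2516 ± 157 to 2204 ± 70.4 CPM (SD, n = 3), a log2 fold change of -0.19 ± 0.05 (SE, edgeR adjusted p = 0.00573), but not with total counts scaling (-0.11) or limma on the deposited log2 FPKM (-0.17).

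A second copy of RPS2, RPS2P46 on chromosome 17, had 33.6, 33.6 and 35.0 CPM in DMSO and 25.4, 27.3 and 27.7 CPM in oridonin. All 3 oridonin libraries were below all 3 DMSO libraries, with a log2 fold change of -0.35 ± 0.06 (SE) and an edgeR adjusted p of 0.000283. RPS2P32, a diverged copy that shares 3.80% of its words, went the other way in its values. It had 1.91, 2.11 and 2.08 CPM in DMSO and 2.35, 2.24 and 3.19 CPM in oridonin. The groups did not overlap, but the difference of 0.34 ± 0.18 (SE) did not pass the edgeR test (adjusted p = 0.146).

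RPSA, which encodes a small-subunit protein that is also known as the laminin receptor, had 8 pseudogene members, and 3 of the 7 tested fell. RPSAP58 had 19.0, 19.0 and 21.6 CPM in DMSO and 16.2, 15.9 and 16.4 CPM in oridonin, without overlap. edgeR gave a log2 fold change of -0.30 ± 0.08 (SE) with an adjusted p of 0.00455, beside -0.28 ± 0.04 (SE) for RPSA. RPSAP15 fell by 0.50 on the log2 scale.

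RPSAP19 had the lowest log2 fold change of the 53 tested members, -1.20 ± 0.35 (SE, edgeR adjusted p = 0.0113), at low counts. It had 20, 35 and 36 counts in DMSO and 27, 12 and 7 in oridonin, or 0.911, 1.23 and 1.31 CPM against 0.848, 0.389 and 0.248 CPM. The groups only just separated, and without oridonin replicate 2 the call was lost. Only the DMSO group was above the filter level in all its libraries, so the value is given as a description. RPSAP47 had 11.4, 18.2 and 11.4 CPM in DMSO and 8.92, 7.01 and 11.5 CPM in oridonin. Here the groups overlapped, DMSO library 2 stood above the others, and the value of -0.59 ± 0.26 (SE) was not called (edgeR adjusted p = 0.118).

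Further copies of small-subunit genes fell as well. RPS3A had 3 tested members, of which RPS3AP26 fell by 0.56 and RPS3AP6 by 0.43 on the log2 scale, beside 0.37 for the parent. RPS3AP26 had 5.79, 7.45 and 7.08 CPM in DMSO and 4.90, 4.87 and 4.04 CPM in oridonin, without overlap. RPS7, whose protein can bind MDM2, had 3 tested members, of which RPS7P11 fell by 0.55 and RPS7P1 by 0.36 on the log2 scale, beside 0.26 for RPS7.

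RPS28P7, identical to RPS28, had 41.3, 46.4 and 50.8 CPM in DMSO and 46.0, 37.6 and 38.6 CPM in oridonin. The groups overlapped at oridonin library 1, and the value of -0.18 ± 0.09 (SE) was not called (edgeR adjusted p = 0.109). It was called without oridonin replicate 1 (-0.28) or DMSO replicate 1 (-0.26). The parent RPS28 stood at 431 ± 24.8 CPM in DMSO and 431 ± 23.3 in oridonin (SD, n = 3), with a log2 fold change of 0.00 ± 0.05 (SE), whose sign changed with the scaling.

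Among copies of large-subunit genes, RPL41P1 (ENSG00000227063, hg38 chromosome 20, 21755270 to 21755350, plus strand) was the most abundant. It had 71.3, 61.6 and 68.4 CPM in DMSO and 54.5, 58.4 and 51.9 CPM in oridonin. All oridonin libraries were lower, with a log2 fold change of -0.29 ± 0.06 (SE, edgeR adjusted p = 0.00171). The value lay close to that of RPL41, -0.24 ± 0.05 (SE). RPL41P5, with the same coding sequence, had 1.92 ± 0.413 and 1.42 ± 0.362 CPM (SD, n = 3) and was not called.

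RPL13AP5 (ENSG00000236552, hg38 chromosome 10, 96750288 to 96750899, plus strand), had 49.8, 50.6 and 54.4 CPM in DMSO and 39.7, 39.8 and 43.0 CPM in oridonin. The groups were well apart, with a log2 fold change of -0.34 ± 0.06 (SE, edgeR adjusted p = 0.000242). RPL13A, its parent, had a value of -0.43 ± 0.05 (SE), among the lowest of the 43 parents. A more diverged copy of the same gene, RPL13AP25, fell by 0.71 on the log2 scale (edgeR adjusted p = 0.0114), although oridonin library 1, at 2.48 CPM, was within the DMSO range of 2.46 to 3.32 CPM. That call was lost without oridonin replicate 2 or 3.

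RPL39P3, identical to RPL39, had 15.2, 14.8 and 15.3 CPM in DMSO and 15.4, 12.9 and 12.9 CPM in oridonin and was not called (-0.13 ± 0.09 SE, edgeR adjusted p = 0.237). RPL39, a small protein at the exit tunnel of the ribosome, stood at 306 ± 9.23 and 307 ± 12.2 CPM (SD, n = 3), with a log2 fold change of 0.01 ± 0.05 (SE) whose sign changed when single libraries were left out. Each of the 7 tested members whose parent was not called was itself not called. All 21 members that fell had a parent that fell, and these parents numbered 15. Of the 46 tested members with a parent called lower, 21 fell and 25 were not called.

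RPLP0P6, a copy of the stalk protein gene RPLP0, had 20.4, 22.4 and 23.8 CPM in DMSO and 17.5, 17.1 and 18.0 CPM in oridonin. The groups did not overlap, and the log2 fold change of -0.35 ± 0.07 (SE) was close to the -0.34 ± 0.04 (SE) of RPLP0. RPL7AP6 fell by 0.38, RPL3P4 by 0.30 and RPL4P4 by 0.46 on the log2 scale, beside 0.25, 0.31 and 0.31 for RPL7A, RPL3 and RPL4. RPL3 lies at the peptidyl transferase centre of the large subunit. The call of RPL3P4 (edgeR adjusted p = 0.0137) was lost without DMSO replicate 2 or 3 and with total counts scaling, and that of RPL7AP6 with limma on the deposited log2 FPKM.

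RPL12P14 had 1.96, 2.35 and 2.12 CPM in DMSO and 1.29, 1.30 and 0.922 CPM in oridonin. The groups were apart, with a log2 fold change of -0.87 ± 0.20 (SE, edgeR adjusted p = 0.00232) beside -0.35 ± 0.05 (SE) for RPL12. Its nearest coding gene by shared words is NBEAL1 (94 of 441 words), with 13.8% of words in RPL12. RPL5P4, a copy of RPL5, whose protein joins the 5S particle that can bind MDM2, had 15, 25 and 23 counts in DMSO and 8, 10 and 16 in oridonin. Its value was -1.10 ± 0.34 (SE, edgeR adjusted p = 0.0157), and the call was lost with DESeq2 and without DMSO replicate 2, oridonin replicate 1 or oridonin replicate 2. Like RPSAP19, it was above the filter level throughout in DMSO only, and its value is a description. RPL5 fell by 0.32 on the log2 scale.

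The parents gave the wider picture. Of the 43 parents, all tested, 34 fell and 1, RPS26, rose, with a median log2 fold change of -0.24. Of 80 cytosolic ribosomal protein genes tested, the parents included, 54 fell and 2 rose, with a median of -0.19. Of 15 other translation genes with a 5′TOP mRNA, such as the elongation factors and PABPC1, 12 fell and 0 rose, with a median of -0.36. Across the 53 tested members the log2 fold changes of member and parent had a Spearman's rho of 0.43 and a Pearson's r of 0.31, and across the 23 at 5 CPM or more 0.60 and 0.63. The points share the 6 libraries and, in part, the parent. Of the 53 members 32, and of the 23 members 21, shared at least 50% of their words with another gene. The part of reads that match both member and parent in these correlations was not tested.

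**Figure D3:**
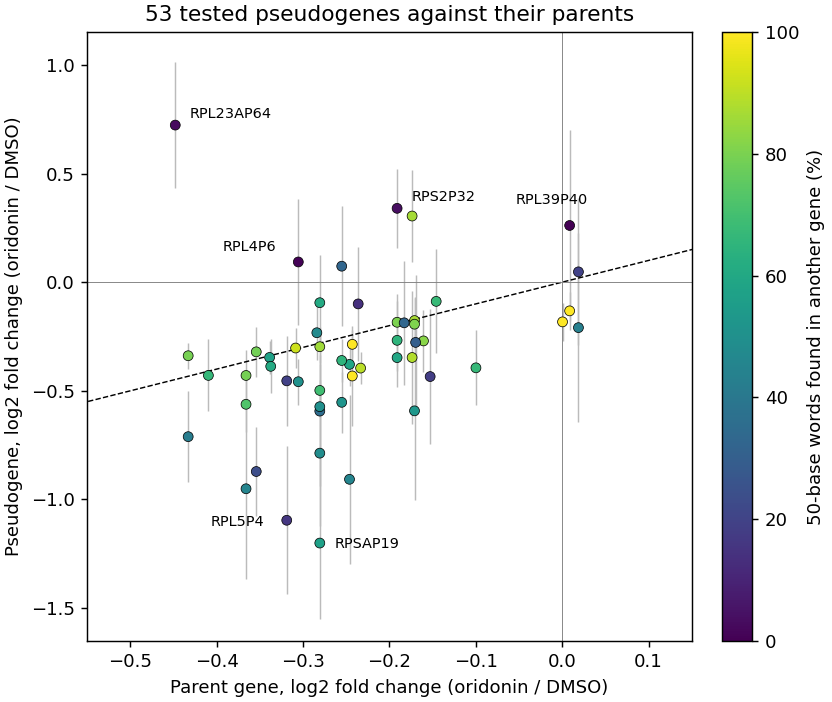
Each point is 1 of the 53 tested pseudogenes. The x axis is the log2 fold change (oridonin over DMSO) of the parent gene and the y axis that of the pseudogene, with its SE as a grey bar. Colour gives the percentage of 50-base words shared with another gene, and the dashed line marks equal change. Most points lie in the lower left, and the 4 darkest points, with under 10% of words shared, lie above 0 on the y axis.

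Calls were fewer among members with little word sharing, which also had lower levels. Of the 21 tested members that shared under 50% of their words, 3 fell, against 18 of the 32 that shared 50% or more. The median log2 fold changes were close, at -0.28 and -0.35. The 4 that shared under 10% had log2 fold changes of 0.72 (RPL23AP64), 0.34 (RPS2P32), 0.26 (RPL39P40) and 0.09 (RPL4P6), and none was called. Their levels were 0.316 to 2.03 CPM in DMSO. Of all genes under 1 CPM, 5.83% were called lower and 11.5% higher, and their median was 0.12. Of the 49 others, 46 were below 0. The 10% level was chosen after the data were seen, and neither difference was tested.

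To compare each member with its parent inside the same library, the log2 ratio of pseudogene to parent CPM was fitted with limma over all 227 processed pseudogenes with a tested parent. Library scaling enters this ratio only through the prior count of 2 added to both genes, which weighs most at low counts. The test called 1.76% of the 227 pairs, 1.32% higher and 0.441% lower, and 1 of the 53 ribosomal protein pairs. Of these 53 ratio changes 37 were below 0 and 16 above, with a median of -0.09 and a range from -0.96 to 1.13. In the 23 members at 5 CPM or more the changes ran from -0.29 to 0.09, and the median of the 174 other pairs was -0.03. Without adjustment, 6 of the 53 had a p under 0.05. A ratio change that missed the test does not show that pseudogene and parent moved alike.

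**Figure D4:**
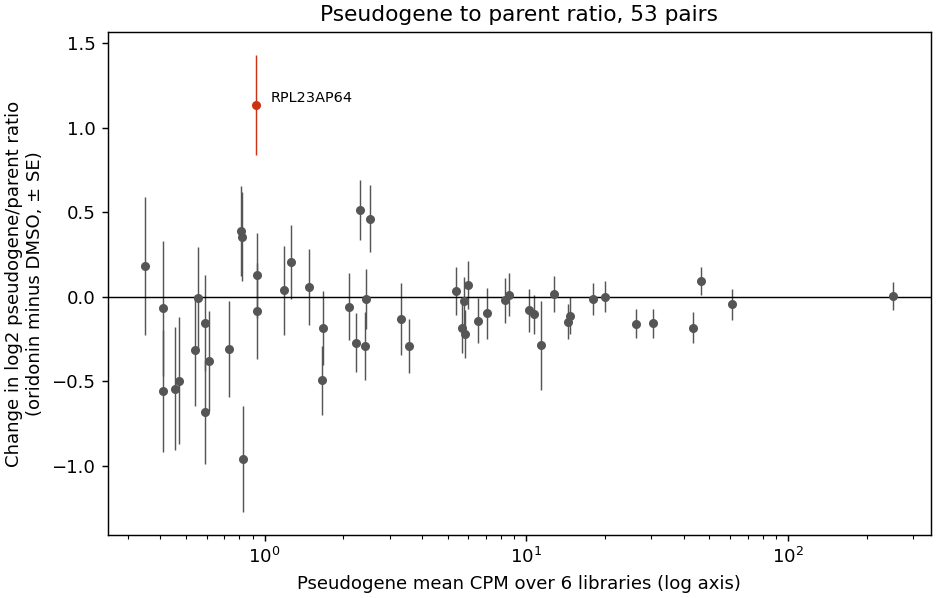
Change in the log2 ratio of pseudogene to parent (oridonin minus DMSO, with SE) for 53 pairs, against the mean CPM of the pseudogene (log axis). The pairs at 5 CPM or more lie between -0.29 and 0.09, and the spread widens at low levels. RPL23AP64, in red, is the pair called by limma.

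RPL23AP64 (ENSG00000240970, hg38 chromosome 11, 119003012 to 119003446, minus strand) was the exception. It had 18, 12 and 24 counts in DMSO and 40, 38 and 27 in oridonin, or 0.820, 0.421 and 0.876 CPM against 1.26, 1.23 and 0.957 CPM. RPL23A, a large-subunit protein gene, had 34.4, 45.9 and 39.3 CPM in DMSO and 29.5, 27.2 and 31.3 CPM in oridonin and fell by 0.45 on the log2 scale (edgeR adjusted p = 0.00153). Neither gene's groups overlapped, and they went in opposite directions. The DMSO mean of RPL23A, 39.9 CPM, was low for a parent, beside 306 CPM for RPL39 and 2516 CPM for RPS2.

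The ratio of RPL23AP64 to RPL23A changed by 1.13 ± 0.30 on the log2 scale (SE, n = 3 per group, limma adjusted p = 0.0412), and was higher in all 3 oridonin libraries than in any DMSO library. By its own counts the difference of 0.72 ± 0.29 (SE) was not called (edgeR adjusted p = 0.0551). It passed with total counts scaling (0.80), and without DMSO replicate 3 (0.93) or oridonin replicate 3 (0.83). The ratio was not called with a prior count of 0.5 (1.18, limma adjusted p = 0.0637). It also turned on single libraries: without DMSO replicate 2 the ratio changed by 0.73 (limma adjusted p = 0.321), and it was also not called without oridonin replicate 1 (0.116) or 3 (0.0722). Over its alternatives the adjusted p of the ratio ran from 0.00334 to 0.321. The pseudogene shares 2.59% of its words with other genes. CCDC84, the gene that holds it in an intron on the opposite strand, rose from 14.4 ± 2.15 to 19.0 ± 2.05 CPM (SD, n = 3), a log2 fold change of 0.41 (edgeR adjusted p = 0.00545). The strand setting of the counting is not given in the sources used here, and the part of reads from CCDC84 was not tested.

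**Figure D5:**
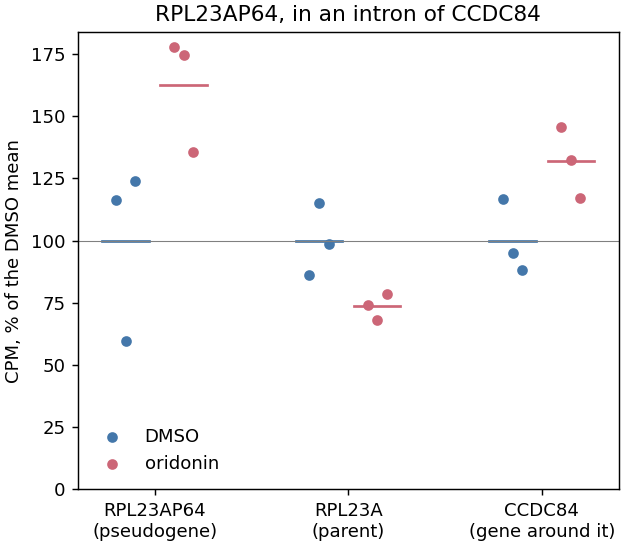
CPM of each library as a percentage of the gene's DMSO mean, for RPL23AP64, its parent RPL23A and CCDC84, whose intron holds it (blue DMSO, red oridonin, 3 libraries each, bars are group means). RPL23AP64 and CCDC84 are above 100% in the oridonin libraries and RPL23A is below it.

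Other members inside genes gave mixed pairs of values. RPL4P4 (-0.46) and RPL7AP6 (-0.38) fell while MAP3K13 (0.27) and SMOC1 (0.25), on the opposite strand, rose. RPL5P4 fell together with ZMYM4 (-0.21), which holds it on the same strand. RPS3AP26 fell inside BAIAP2L1 (0.12) and RPS7P11 inside NSF (0.07), and neither of these genes was called. By position, 10 of 28 tested intergenic members fell, 5 of 9 in same-strand introns and 5 of 14 in opposite-strand introns. Of the members that overlapped an exon on the opposite strand, 1 of 2 fell. Over all 53 tested members 39.6% fell, and over all genes tested 21.3%. The differences between positions were not tested.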

How the data were processed

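Values came from 6 libraries. The authors deposited raw counts for 60504 genes and log2 FPKM values for 18404 of them. The submitters' processing notes name hg38 and DESeq2 1.10.1. Which aligner, counter, strand setting and rule for multiply matching reads the authors used is not given in the sources used here. Parents were found by removing P and the number from the symbol, and sequences were compared with GENCODE 29 transcripts, Biopython 1.88 giving identity to the parent.

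Counts were tested with edgeR 4.0.16 in R 4.3.3 (quasi-likelihood, TMM, filterByExpr, Benjamini-Hochberg over 15116 genes, adjusted p under 0.05). Ratios were tested with limma 3.58.1 on log2 CPM with a prior count of 2. On simulated 2-fold changes edgeR recovered 187 of 211 changed genes with 7 false calls among 14921 genes, and limma 22 of 29 changed pairs with 1 false call among 219 pairs. The simulation gave every gene the same dispersion and changed only 211 of 14921 genes, whereas 41.9% of genes were called in these data. Its false calls thus do not measure the error in these data. Most changes reported here are smaller than 2-fold, and the recovery of such changes was not measured. DESeq2 1.42.0, other scalings, filters, a replicate block and left-out libraries were alternatives. CPM were scaled by TMM factors.

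Named were the 12 members with the highest mean, up to 8 called members with the most extreme log2 fold changes each way, members with a called ratio change, the 4 parents with most tested members, and the parents and surrounding genes of named members. Others were chosen after their values were seen. The members and gene lists were chosen with earlier results of these data known. A gene pair that this rule takes is not reported here.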

Additional observations from a re-analysis of the deposited data

How the results depend on the processing

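The count of 21 called members stayed between 17 and 23 with DESeq2 (17), total counts scaling (18), RLE factors (21), no filter (22) and limma on log2 FPKM (23), and between 16 and 25 when 1 library was left out; 15 to 21 of the original calls recurred. The parents' count of 35 ran from 26 (total counts scaling) to 36. Of the other processed pseudogenes 46 were called, against 21 with DESeq2 and 91 with limma on log2 FPKM, and 31 to 49 without single libraries. The 1 called ratio became 0 with a prior count of 0.5 and 0 among members of at least 1 CPM (RPL23AP64 has less), and 0 to 2 without single libraries. The summed CPM, 83.3% of DMSO, ran from 80.2% to 86.1% without single libraries, was 88.0% with total counts scaling, and 80.6% without RPS2P5, an alternative chosen after seeing the data. No member overlapped an exon of another tested gene. RPL39 (0.01) ran from -0.017 (without DMSO replicate 3) to 0.042 without single libraries. RPS28 (0.00) turned to -0.0078 with DESeq2 and -0.0040 with RLE factors, and ran from -0.047 (without DMSO replicate 1) to 0.041 without single libraries. For the named genes, 424 values kept their direction and side of the threshold, 14 lost and 10 gained a call, and 8 changed sign. The causes were not tested.

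The labels give the same replicate numbers in both groups but no shared culture, so the main test did not pair the libraries. Deviations of same-numbered libraries correlated at 0.194, 0.0651 and 0.173, and each library correlated best with its own number. Those of differently numbered libraries ran from -0.162 to 0.00732. An effect shared by libraries of the same number is therefore possible, and its source was not tested. With the replicate number as a block, 22 members (21 lower, 1 higher), 35 parents, 61 other processed pseudogenes, 7689 genes and 2 ratios (1 higher, 1 lower) were called, against 21, 35, 46, 6332 and 1. Depth limits the members under 1 CPM, where each count weighs heavily, and the 43 members that were not tested.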
